A study of Rattus norvegicus with 939 samples.

Results

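The genes examined here encode subunits of the 26S proteasome in cultured primary rat hepatocytes, and they were taken by name from the platform annotation, with the probe set of highest mean standing for each gene. Of 34 listed genes, 33 were measured among the 14218 genes tested. The remaining one, Psmb6, shares its probe set with another symbol and has no value here. The hepatocytes were exposed to 1 of 125 compounds or to vehicle alone, and poly(A) RNA was hybridized to Affymetrix Rat 230 2.0 arrays after 0.67 or 1 day. The series holds 826 treated and 113 control arrays in 5 runs of hybridization days, called campaigns here. Campaigns 1 to 3 give 128 treatments (a compound at a dose), each with 5 to 6 treated arrays and the 6 to 34 vehicle controls whose description names the compound. Some control descriptions name TGF beta or MLN compounds under other numbers, and these were read as the compounds of the treated arrays. Campaign 4 repeats chlorpromazine and campaign 5 gives 3 doses of 6 compounds, both at 1 d only. The labels name no animal or strain. Some control titles name DMSO and others name no vehicle, also among the controls of the same compounds, and these were pooled. Control titles carry a date, read here as the culture day, and treated titles carry none, so it is not known whether treated replicates came from separate cultures, and p-values measure the spread between these arrays.

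The proteasome degrades proteins tagged with ubiquitin. Its 20S core is a barrel in which alpha subunits (Psma genes) form the outer rings and gate the entrance, while beta subunits (Psmb genes) form the inner rings and carry the proteolytic sites. In the constitutive core the catalytic subunits are Psmb5, Psmb6 and Psmb7. Interferon induces Psmb8, Psmb9 and Psmb10, which replace them in the immunoproteasome and change the peptides made for presentation on MHC class I. The 19S cap binds, unfolds and feeds in the substrate, with ATPases (Psmc genes) and scaffold or ubiquitin receptor subunits (Psmd1, Psmd2, Psmd4) at its base and a lid (the other Psmd genes) that holds the deubiquitinase Psmd14. Cells that lose proteasome activity are known to raise the constitutive subunit genes together through the transcription factor NRF1 (Nfe2l1).

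The start regions of 5 members are shown first, those of the 3 immunoproteasome genes and of the constitutive Psmb5 and Psmd4, because the immunoproteasome and constitutive genes moved apart. Each is the stretch of 120 bases before the start used by the RefSeq promoter table, written 5′ to 3′ in the direction of the gene. Capitals mark matches to GAAANNGAA, the letters searched for an interferon response element, in the immunoproteasome genes, and to TGACNNNGC, the letters searched for the core of an antioxidant response element, in the other genes.
Psmb10 (GRCr8, chr19:50743293-50743412, minus strand): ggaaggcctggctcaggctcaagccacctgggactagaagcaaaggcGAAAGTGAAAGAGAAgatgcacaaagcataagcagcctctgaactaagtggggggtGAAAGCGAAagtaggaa
Psmb9 (GRCr8, chr20:4668880-4668999, plus strand): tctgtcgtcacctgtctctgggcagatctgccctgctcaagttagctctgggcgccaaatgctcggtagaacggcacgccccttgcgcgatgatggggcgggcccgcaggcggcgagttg
Psmb8 (GRCr8, chr20:4657032-4657151, minus strand): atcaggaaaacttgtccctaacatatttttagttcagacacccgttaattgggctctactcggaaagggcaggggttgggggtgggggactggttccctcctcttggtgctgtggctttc
Psmb5 (GRCr8, chr15:32047380-32047499, minus strand): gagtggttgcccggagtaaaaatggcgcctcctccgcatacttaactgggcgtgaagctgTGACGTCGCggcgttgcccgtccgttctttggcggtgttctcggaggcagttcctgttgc
Psmd4 (GRCr8, chr2:185297202-185297321, minus strand): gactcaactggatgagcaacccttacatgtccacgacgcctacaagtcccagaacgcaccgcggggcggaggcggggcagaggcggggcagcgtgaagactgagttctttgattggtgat
For Psmb9, Psmb8 and Psmd4 that start lies inside the annotated span of the gene, so their stretches lie partly within it. Psmb10 held 3 matches to GAAANNGAA, the first pair of them overlapping. Psmb9 held none in these 120 bases, and the match of Psmb8 spans its start site and lies partly outside the stretch. Psmb5 held 1 match to TGACNNNGC and Psmd4 none. RefSeq promoters of 300 bases were given for 30 of the 34 listed genes (none for Psma7, Psmd6, Psmd12 and Psmd14), and both strands were searched. GAAANNGAA occurred in 7 of the 30 (23.3%) and in 9.5% of 27457 promoters of all genes. The 7 were 2 of the 3 immunoproteasome genes and the constitutive Psma4, Psmb2, Psmb3, Psmd7 and Psmd11, and Psmb9 held no match in its 300 bases. TGACNNNGC occurred in 6 of 30 (20%, none of them an immunoproteasome gene) against 12.2%, and the CCAAT box, CCAAT, in 16 of 30 (53.3%) against 37.7%. A match is a run of letters and not a shown binding site.

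In the controls of campaigns 1 to 3, the 7 measured hepatocyte markers had gene means from 10.02 to 14.35 on the log2 scale, Kupffer cell markers from 4.22 to 10.25, endothelial markers from 4.44 to 7.50, stellate cell markers from 3.12 to 7.12 and cholangiocyte markers from 3.94 to 8.67. Probe sets differ in affinity, so these levels do not rank the cell types. Array medians over all 31099 probe sets ran from 5.41 to 5.73, and the members varied little among the 104 controls, with SDs from 0.09 (Psmb1, Psmb4, Psmc2, Psmd6) to 0.29 (Psmb10). Of the arrays, 2 went against their labels. The array labelled clofibrate 0.67 d replicate 1 correlated at 0.906 with gemfibrozil 1 d arrays and at 0.421 with its own group, and the array labelled gemfibrozil 1 d replicate 1 at 0.307 with clofibrate 0.67 d and at -0.072 with its own group, as differences from controls over the 500 most variable genes. Without these 2 arrays all 168 member calls given next were made again, and the count of lower calls became 126.

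Across the 128 treatments, most higher calls came from constitutive genes and most lower calls from immunoproteasome genes. Over 33 members and 128 treatments there were 4224 pairs of member and treatment, and a call needed both a change of at least 1.5-fold and a limma p of at most 0.01 once corrected by Benjamini-Hochberg over every gene tested. Members were called higher in 44 pairs (1.04%, against 3.67% of all genes) and lower in 124 pairs (2.94%, against 4.92% of all genes). The 3 immunoproteasome genes gave 105 of the lower calls and 1 of the higher, so that 27.3% of their 384 pairs were lower. The 30 constitutive members gave 43 higher calls (1.12%) and 19 lower calls (0.495%), both under the share of all genes. With no bound on size, members were higher in 456 pairs (10.8%, against 9.95% of all genes) and lower in 327 (7.74%, against 9.52%). For the constitutive members these were 449 (11.7%) and 174 (4.53%), and for the immunoproteasome genes 7 (1.82%) and 153 (39.8%). The median log2 change was 0.04 over constitutive pairs and -0.27 over immunoproteasome pairs. The split of calls depends on scaling: 26.2% of member calls were higher as deposited and 51.4% (113 higher, 107 lower) after the median of each array was subtracted, and 20.4% (32 higher, 125 lower) after repeated quantile normalization. This array median, taken over the 14218 genes, lay from 0.30 lower to 0.07 higher in treated than in control arrays and moved by over 0.1 in 24 treatments. The median change over all genes, by contrast, ran from -0.02 to 0.14 and passed 0.1 in 1 treatment.

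**Figure D1:**
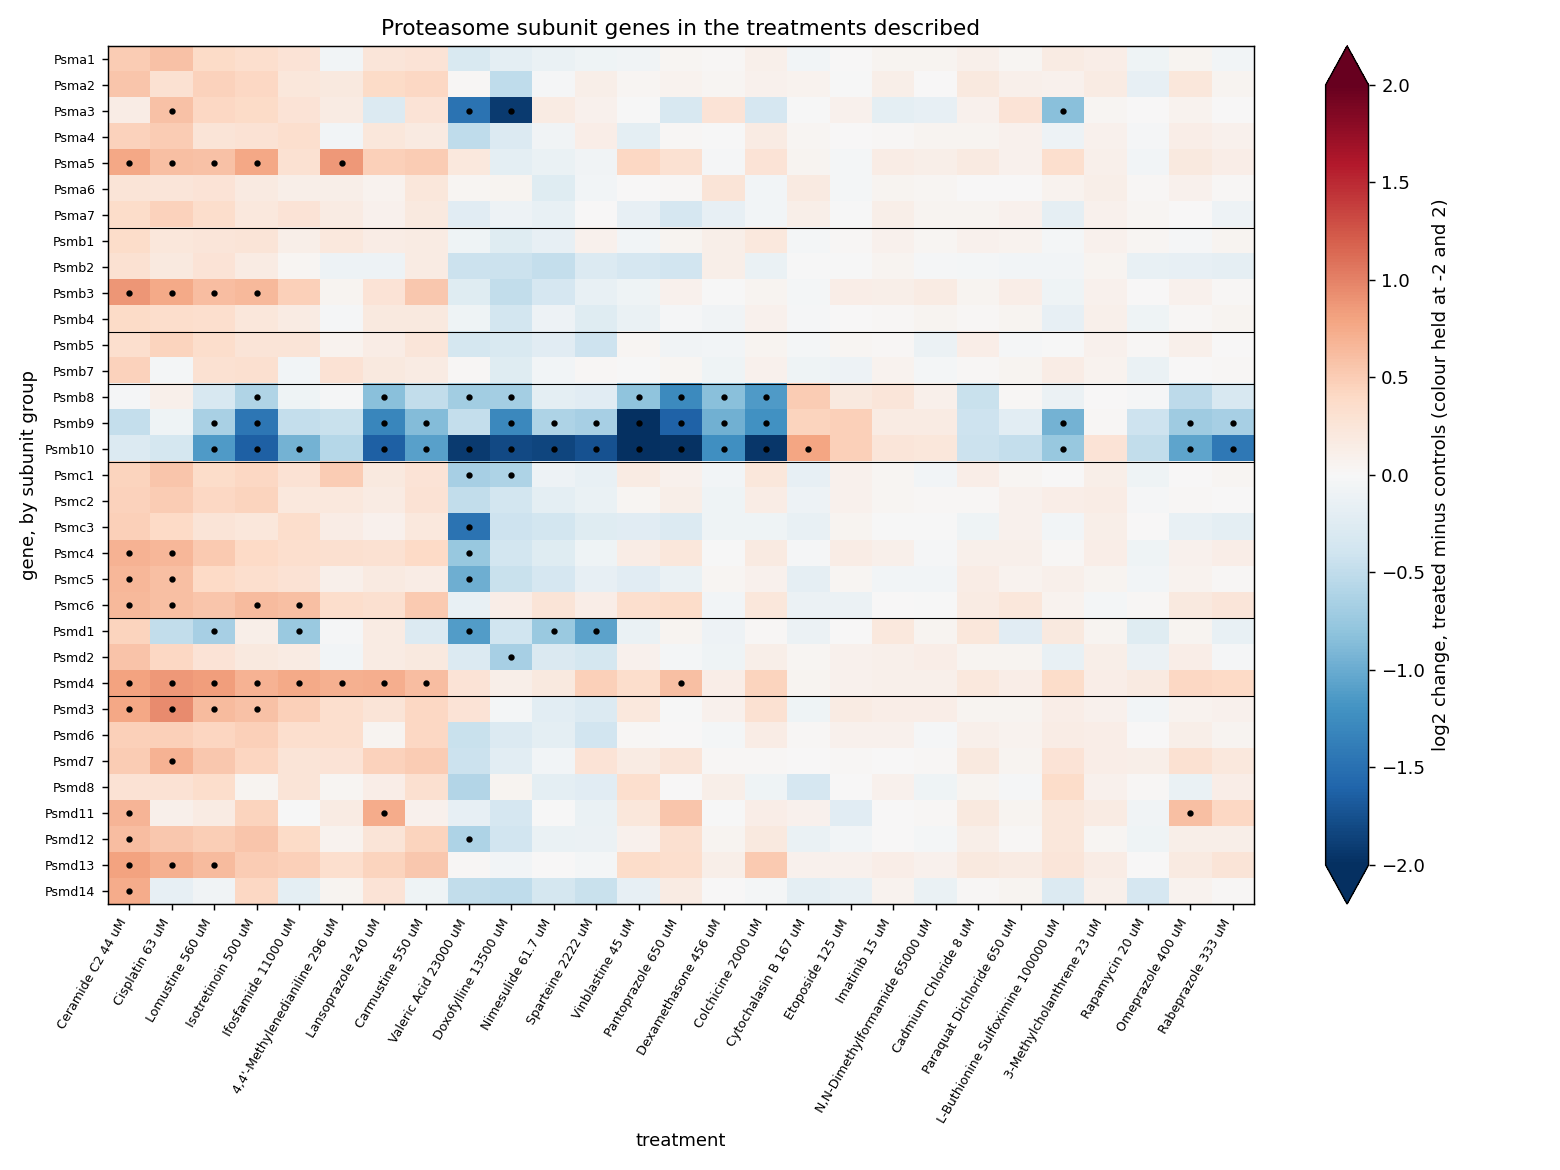
Log2 change (colour, held at -2 and 2) of the 33 members, in rows by subunit group, in the 27 treatments described, in columns; black points mark calls. The left columns are mostly red for constitutive genes, with Psmb3 at 0.89 for ceramide C2, and the rows of Psmb8, Psmb9 and Psmb10 are mostly blue, down to -2.63.

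No treatment reached 17 members called at 1.5-fold in either direction, and ceramide C2 came nearest in the higher direction. Ceramide C2, a short-chain ceramide that enters cells, raised 11 members at 44 uM, where 1.65% of all genes were called higher. With no bound on size it raised 29 members, against 6.53% of all genes, and the median of the constitutive members was 0.49 on the log2 scale against 0.01 for all genes. Psmb3, a structural subunit of the inner ring, read 11.75, 12.04 and 12.27 (lowest, median and highest of 6 arrays) against 10.82, 11.21 and 11.45 in 6 controls. The 2 groups did not overlap, and the change was 0.89 (SE 0.12, adjusted p = 1.96e-04), or 1.85-fold. Psmd13, a lid subunit, read 10.32, 10.61 and 10.65 against 9.43, 9.73 and 9.96, a change of 0.81 (SE 0.10, adjusted p = 1.24e-04). Psmd4, a ubiquitin receptor, read 10.59, 10.71 and 10.87 against 9.70, 9.90 and 10.25, a change of 0.80 (SE 0.08, adjusted p = 2.87e-05). Neither gene overlapped between the groups. With ceramide C2, 28 members and 5.52% of all genes lay wholly above the controls. The ATPases Psmc4, Psmc5 and Psmc6, the alpha ring subunit Psma5 and the lid subunits Psmd3, Psmd11, Psmd12 and Psmd14 made up the other calls, with changes from 0.62 to 0.78. The catalytic Psmb5 rose by less, 0.33 (SE 0.07, adjusted p = 0.00456), again without overlap (11.97, 12.19 and 12.32 against 11.69, 11.91 and 11.94). Psmb9 fell by 0.48 on the log2 scale (adjusted p = 4.41e-05), below the bound on size, and Psmb8 had a change of -0.03 (adjusted p = 0.725). Within the 3 hybridization days that held both ceramide and control arrays, the constitutive median was 0.39, 0.46 and 0.58, with all 30 constitutive members above 0 in each. These days held 1 to 2 treated and 1 to 3 control arrays each, and exposure times were not matched. The members were read on the same few arrays, so their number adds no replication. Without replicate 2 the count of members called higher was 6, and at 0.67 d alone or at 1 d alone, with 3 treated arrays each, it was 1.

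Cisplatin, a DNA crosslinking platinum compound, raised 10 members at 63 uM, where 10.4% of all genes were called higher. With no bound on size it raised 25 members, against 22.5% of all genes. Psmd3, a lid subunit, read 10.56, 10.78 and 11 in 6 treated arrays against 9.62, 9.81 and 10.03 in 8 controls, a change of 0.94 (SE 0.09, adjusted p = 5.72e-07) or 1.91-fold. Psmd4 read 10.66, 10.76 and 10.88 against 9.76, 9.90 and 10.10 and changed by 0.86 (SE 0.07, adjusted p = 5.67e-08). Both genes lay above every control on every treated array, as did 24 members in all and 14.1% of all genes. Psmb3 (0.76), Psmd13 (0.71), Psmd7 (0.70), Psmc4 (0.67), Psma5 (0.60), Psmc5 (0.60), Psmc6 (0.60) and Psma3 (0.59) were the other calls. The scaffold subunit Psmd1 went the other way, reading 8.96, 9.15 and 9.26 against 9.48, 9.63 and 9.76, a change of -0.49 (adjusted p = 1.17e-05). Within the 3 hybridization days with both groups the constitutive median was 0.39 to 0.49, from 1 treated array and 1 to 2 controls on each day. The array median lay 0.23 lower in cisplatin than in control arrays, and 20 members were called higher after it was subtracted.

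**Figure D2:**
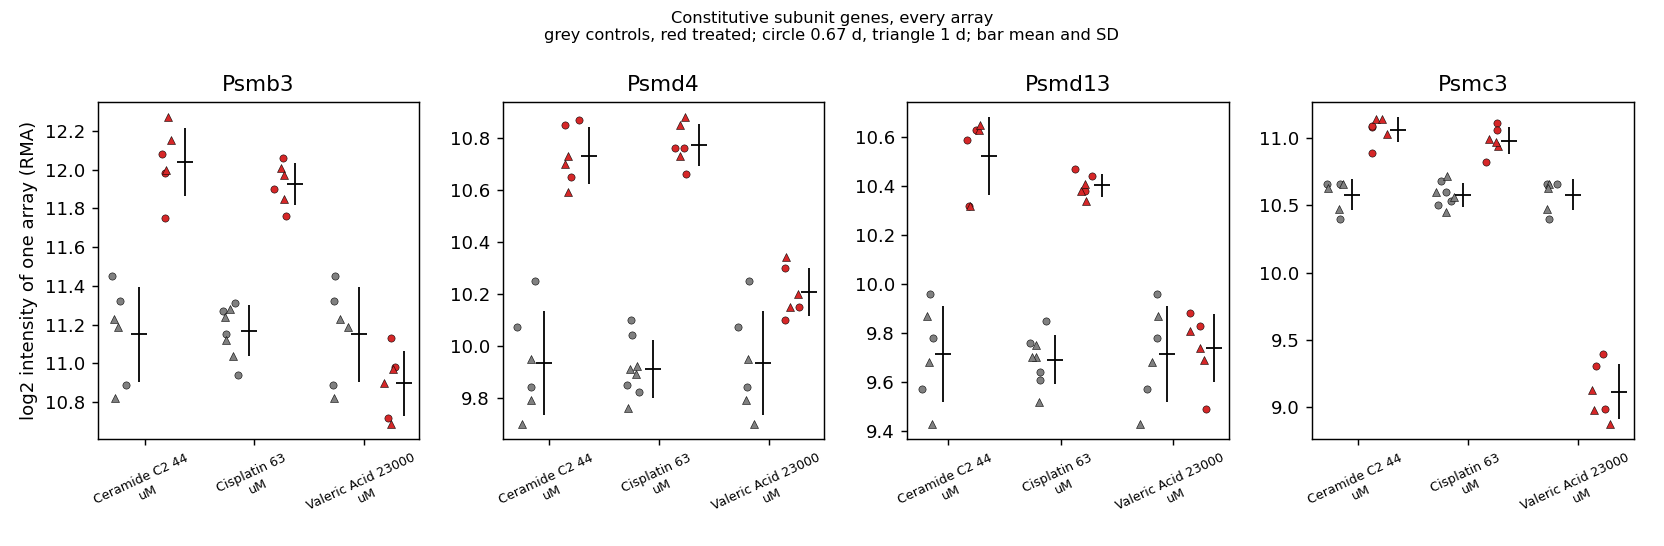
Log2 intensity on every array for Psmb3, Psmd4, Psmd13 and Psmc3, each panel with its own vertical axis, in controls (grey) and treated arrays (red) of 3 treatments; circles are 0.67 d, triangles 1 d, bars mean and SD. Ceramide C2 and cisplatin arrays lie above their controls in all 4 panels, and valeric acid arrays lie below them for Psmc3 (8.88 to 9.40 against 10.40 to 10.66).

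The nitrosourea lomustine, an alkylating agent, raised 5 members at 560 uM, where 11.8% of all genes were called higher, and 25 with no bound on size, against 25.3% of all genes. Psmd4 changed by 0.84 (SE 0.07, adjusted p = 2.07e-08) from 9.67, 9.80 and 9.93 in 8 controls to 10.49, 10.67 and 10.78. Psmd1 fell from 9.28, 9.65 and 9.74 to 8.73, 8.94 and 9.13, a change of -0.66 (SE 0.07, adjusted p = 4.02e-07). Neither gene overlapped, and these base subunits moved in opposite directions on the same arrays. With lomustine 25 members and 17.7% of all genes lay wholly above the controls, and 2 members and 16.3% wholly below. The retinoid isotretinoin raised 5 members at 500 uM (9.32% of all genes were called higher) and 24 with no bound on size (20.6%), with Psma5 at 0.78 (SE 0.07, adjusted p = 2.32e-07) and Psmd4 at 0.70 (SE 0.06, adjusted p = 1.08e-07). Without replicate 2 isotretinoin raised 3. For lomustine the count was 1 against all controls of the campaign or after repeated quantile normalization and 19 after the array median was subtracted. The isotretinoin arrays also had all 3 immunoproteasome genes called lower. Psmb10 read 7.80, 8.05 and 8.21 against 9.01, 9.70 and 10.22, a change of -1.64 (SE 0.10, adjusted p = 2.90e-09) with no overlap. With isotretinoin 3 members and 12.5% of all genes lay wholly below the controls.

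Ifosfamide, a crosslinking nitrogen mustard, raised 2 members at 11000 uM (9.59% of all genes were called higher) and 25 with no bound on size, beside 41.5% of all genes. Psmd4 rose by 0.76 and Psmc6 by 0.60, while Psmd1 fell from 9.25, 9.67 and 9.90 in 32 controls to 8.53, 8.96 and 9.13 (change -0.75, SE 0.07, adjusted p = 3.55e-12) with no overlap. With ifosfamide 2 members and 11.2% of all genes lay wholly below the controls. The aromatic amine 4,4'-Methylenedianiline raised 2 members at 296 uM, Psma5 and Psmd4, where 6.71% of all genes were called higher. Its Psma5 value, 0.86 (SE 0.08, adjusted p = 5.22e-08), is the highest of that gene over the 128 treatments, with 11.91, 12.17 and 12.38 against 11.14, 11.31 and 11.55. Lansoprazole, a proton pump inhibitor, raised 2 members at 240 uM (10.4% of all genes were called higher), Psmd4 at 0.72 and Psmd11 at 0.74. The Psmd11 value was 0.17 when the median of its probe sets was used, and the other probe sets of that gene correlated with the chosen one at 0.462 and -0.015 over all arrays. The nitrosourea carmustine raised 1 member at 550 uM, Psmd4 at 0.61 (9.3% of all genes were called higher), and 0 without replicate 1 or after repeated quantile normalization, against 3 without replicate 3. With ifosfamide, 4,4'-Methylenedianiline, lansoprazole and carmustine alike, the share of members called higher at 1.5-fold lay below that of all genes.

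Valeric acid, a short-chain fatty acid given at 23000 uM, lowered 9 members, where 14.7% of all genes were called lower, and 20 with no bound on size, against 23.6% of all genes. Psmc3, an ATPase of the base, read 8.88, 9.06 and 9.40 against 10.40, 10.64 and 10.66 in the 6 controls it shares with ceramide C2, a change of -1.47 (SE 0.09, adjusted p = 1.50e-08), or 2.76-fold lower. The alpha ring subunit Psma3 read 6.05, 6.44 and 6.78 against 7.61, 7.95 and 8.01, a change of -1.47 (SE 0.11, adjusted p = 8.94e-08). Psmd1 read 8.14, 8.48 and 8.78 against 9.53, 9.62 and 9.73, a change of -1.12 (SE 0.09, adjusted p = 1.92e-07). None of these overlapped with its controls. With valeric acid 18 members and 19.2% of all genes lay wholly below the controls. The ATPases Psmc5 (-0.97), Psmc4 (-0.76) and Psmc1 (-0.66), the lid subunit Psmd12 (-0.61), Psmb10 (-1.92) and Psmb8 (-0.69) were also called. Psmd4 was not, at 0.27 (adjusted p = 0.0167).

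Doxofylline, a methylxanthine bronchodilator, lowered 6 members at 13500 uM, where 10.9% of all genes were called lower, and 22 with no bound on size, against 18.9% of all genes. Psma3 read 5.65, 5.83 and 6.79 against 7.75, 7.91 and 8.00 in 6 controls, a change of -1.92 (SE 0.15, adjusted p = 3.74e-07) or 3.78-fold lower, with no overlap. The lower of these treated readings lie near the array medians (5.41 to 5.73), where background limits how far the size can be read. With doxofylline 18 members and 13.5% of all genes lay wholly below the controls. Psmd2, a base scaffold, changed by -0.66 and Psmc1 by -0.62, and the 3 immunoproteasome genes made up the rest. Nimesulide, an anti-inflammatory sulfonanilide, lowered 3 members at 61.7 uM (9.76% of all genes were called lower), Psmd1 at -0.74 beside Psmb9 and Psmb10. Without replicate 2 it lowered 1. The alkaloid sparteine lowered 3 members at 2222 uM (13% of all genes were called lower), with Psmd1 at 8.33, 8.55 and 8.82 against 9.25, 9.68 and 9.77, a change of -1.07 (SE 0.10, adjusted p = 1.15e-06). With nimesulide and with sparteine the share of members called lower lay below that of all genes. L-Buthionine Sulfoximine, an inhibitor of glutathione synthesis given at 100000 uM, lowered Psma3 among the constitutive members, from 7.76, 7.93 and 8.15 in 16 controls to 6.44, 7.02 and 7.72, a change of -0.84 (SE 0.11, adjusted p = 7.40e-07).

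The members differed in how often they moved. Psmd4 was called higher in 10 treatments and lower in 0, was higher in 47 with no bound on size and had a change above 0 in all but 7 of 128, with a median of 0.19. Psmd13 was higher in 31 treatments with no bound on size and Psmd6 in 39, both with small changes (medians 0.15 and 0.11). Over all genes and treatments, 9.95% of pairs were higher with no bound on size. Psmd1 went mostly down, called lower in 9 treatments and higher in 0, with -1.12 as its lowest change. Psma3 was called higher in 2 and lower in 3, each under the share of all genes in that direction. The catalytic Psmb5 and Psmb7 were called in no treatment (limma, 66 of their 256 pairs had an unadjusted p below 0.05), and Psmb5 ranged from -0.41 with sparteine to 0.44 with cisplatin. By group, the lid gave 14 higher calls and 1 lower in 1024 pairs, the ATPases 8 and 5 in 768, the alpha ring 7 and 3 in 896 the structural beta subunits 4 and 0 in 512 and the base subunits Psmd1, Psmd2 and Psmd4 together 10 and 10 in 384 (2.60% each way). Each of these shares lies below that of all genes in its direction (3.67% higher, 4.92% lower). Of the constitutive higher calls, all lay in 13 treatments, and of the lower calls, all lay in 11.

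The immunoproteasome genes fell in many more treatments than the constitutive ones. At least one of them was called lower in 69 of 128 treatments, and in 51 of these no constitutive member was called in either direction. Psmb10 was lower in 64 treatments, Psmb9 in 29 and Psmb8 in 12, and all 3 together in 8. With vinblastine, a microtubule poison, at 45 uM, Psmb10 read 6.86, 7.17 and 7.36 in 6 arrays against 9.38, 9.84 and 10.03 in 16 controls, a change of -2.63 (SE 0.10, adjusted p = 5.39e-16) or 6.20-fold lower. Psmb9 read 7.89, 8.67 and 8.94 against 10.63, 10.99 and 11.18, a change of -2.37 (SE 0.11, adjusted p = 2.04e-14), and Psmb8 read 9.95, 10.34 and 10.55 against 10.59, 11.13 and 11.46, a change of -0.80 (SE 0.11, adjusted p = 8.50e-07). The groups did not overlap for any of the 3. With vinblastine 4 members and 16.2% of all genes lay wholly below the controls. Vinblastine lowered 3 members in all, and 17.1% of all genes were called lower. Colchicine, which also binds tubulin, lowered the same 3 members at 2000 uM, where 9.94% of all genes were called lower. There Psmb10 changed by -1.94 (SE 0.10, adjusted p = 1.92e-17), Psmb9 by -1.21 and Psmb8 by -1.13. With vinblastine and with colchicine the share of all members called lower lay below that of all genes.

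**Figure D3:**
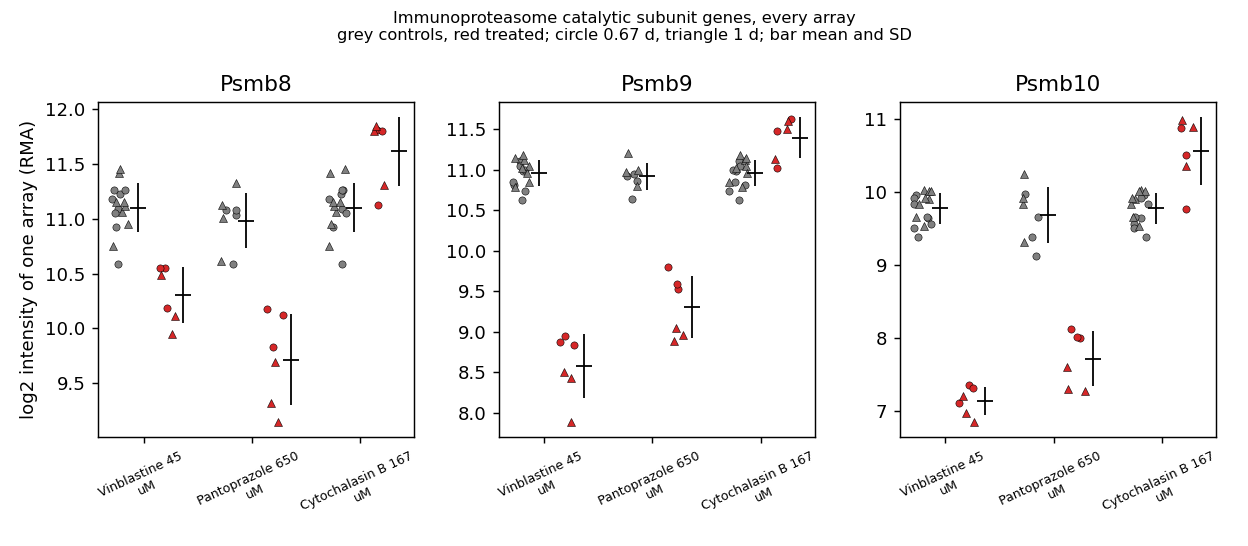
Log2 intensity on every array for Psmb8, Psmb9 and Psmb10, each panel with its own vertical axis, in controls (grey) and treated arrays (red) of 3 treatments; circles are 0.67 d, triangles 1 d, bars mean and SD. Vinblastine and pantoprazole arrays lie below all their controls, with Psmb10 at 6.86 to 7.36 for vinblastine, and most cytochalasin B arrays lie above, up to 10.98 for Psmb10.

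The proton pump inhibitors, which share a substituted benzimidazole joined to a pyridine, were given at different doses, so their values are set side by side without a comparison. Pantoprazole lowered 3 members at 650 uM, where 15.1% of all genes were called lower, all of them immunoproteasome genes, and raised Psmd4 (0.60). The share of all members called lower lay below that of all genes. Psmb10 read 7.28, 7.80 and 8.12 against 9.13, 9.74 and 10.25 in the 8 controls it shares with cisplatin, a change of -1.97 (SE 0.19, adjusted p = 3.98e-07) with no overlap. For Psmb10 the change was -1.63 (SE 0.12) with lansoprazole at 240 uM, -1.43 (SE 0.17) with rabeprazole at 333 uM and -1.06 (SE 0.11) with omeprazole at 400 uM. For Psmb8 it was -1.27 with pantoprazole, -0.83 with lansoprazole, -0.53 with omeprazole and -0.32 with rabeprazole, of which the last had an adjusted p of 0.102. Psmd4 lay between 0.40 and 0.72 and Psmd11 between 0.41 and 0.74 in these 4 treatments, and omeprazole had Psmd11 called higher at 0.60 (adjusted p = 6.16e-05). All these Psmd11 values rest on the chosen probe set, with which the others of that gene correlated at 0.462 and -0.015.

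Dexamethasone, a glucocorticoid, lowered 3 members at 456 uM, again the immunoproteasome genes, where 4.89% of all genes were called lower. Psmb10 read 8.35, 8.42 and 8.57 against 9.01, 9.70 and 10.22 in the 8 controls it shares with isotretinoin and lomustine, a change of -1.23 (SE 0.12, adjusted p = 9.12e-07). Psmb8 read 9.96, 10.21 and 10.52 against 10.74, 11.08 and 11.51, a change of -0.84 (SE 0.12, adjusted p = 4.45e-05). Neither overlapped, while the constitutive median was -0.01. With dexamethasone 3 members and 7.34% of all genes lay wholly below the controls. In the opposite direction, cytochalasin B, which blocks actin polymerization, raised Psmb10 at 167 uM from 9.38, 9.84 and 10.03 in the 16 controls it shares with vinblastine to 9.76, 10.69 and 10.98, a change of 0.79 (SE 0.12, adjusted p = 4.37e-05). The groups overlapped on the lowest treated array, and the change was 0.58, under the bound, without replicate 3. Psmb8 (0.51) and Psmb9 (0.44) passed only without a bound on size. Etoposide, a topoisomerase poison, changed Psmb9 by 0.47 (adjusted p = 1.10e-04) and Psmb10 by 0.48 (adjusted p = 0.00209) at 125 uM.

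**Figure D4:**
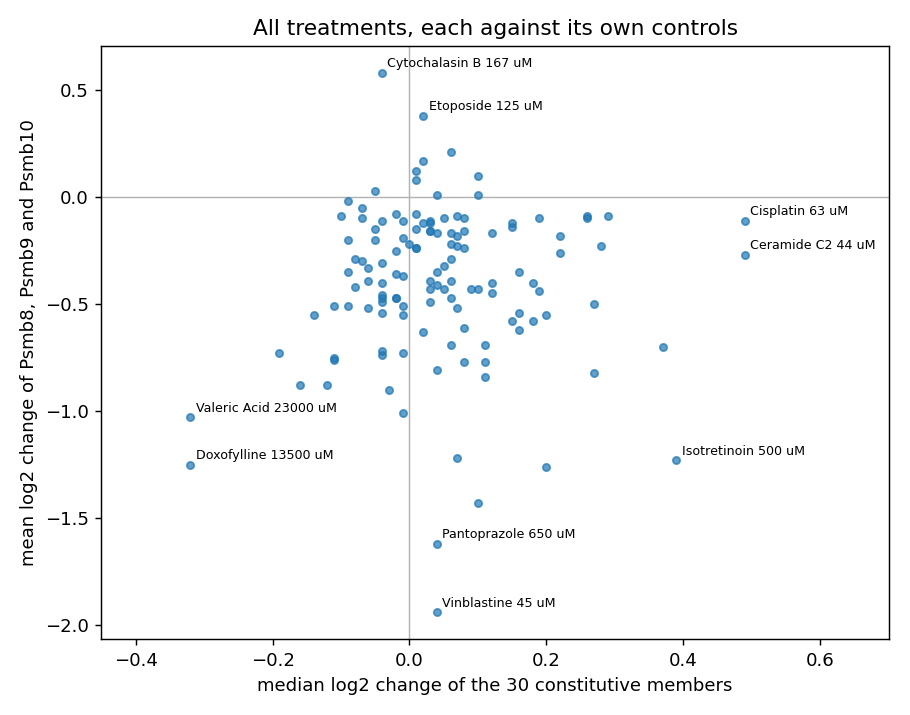
Each point is 1 of 128 treatments, with the median log2 change of the 30 constitutive members across and the mean log2 change of Psmb8, Psmb9 and Psmb10 upward, each against the controls naming it. Most points lie below 0 on the vertical axis, down to -1.94 for vinblastine, while the horizontal spread runs from -0.32 to 0.49.

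Markers of other cells were read beside these values. Kupffer cells are macrophages that also express immunoproteasome genes. Of 7 measured Kupffer cell markers, 2 were called lower with vinblastine, whose summed level as an array mean ran from 5.90 to 6.53 against 6.53 to 7.80 in controls, 2 with colchicine (6.26 to 6.55 against 6.44 to 7.80) and 2 with pantoprazole, with 1 higher (6.38 to 6.63 against 6.33 to 6.78). Lansoprazole also had 2 of them called lower and 1 higher (6.46 to 6.75 against 6.44 to 6.81). Over all treatments these markers were called higher in 34 pairs (3.79%, against 3.67% of all genes) and lower in 74 (8.26%, against 4.92%) of 896. The markers did not move alike, as Lyz2 was lower in 40 treatments and higher in 0, and Cd68 was higher in 26 and lower in 0. With dexamethasone and isotretinoin, which also had all 3 immunoproteasome genes called lower, 0 of the 7 Kupffer cell markers were called lower (6.69 to 6.97 and 6.43 to 6.68, both against 6.66 to 6.91), and with doxofylline 2 were called higher. Of 7 hepatocyte markers, 5 were lower with vinblastine (10.40 to 11.64 against 12.40 to 12.70), while 2 were higher and 0 lower with dexamethasone (13.07 to 13.23 against 12.56 to 12.70). Over all treatments hepatocyte markers were lower in 174 of 896 pairs (19.4%) and higher in 11 (1.23%). Endothelial markers were lower in 102 of 768 pairs (13.3%) and higher in 0. Where the markers moved, their part in the fall of the immunoproteasome genes was not tested, and in these bulk samples fewer cells of a type and less RNA per cell cannot be told apart. Genes of class I presentation and the interferon response were called lower in 252 of 1536 pairs (16.4%, against 4.92% of all genes) and higher in 71 (4.62%, against 3.67%). Gbp2, an interferon-induced GTPase, was lower in 76 treatments and Irf7, an interferon regulatory factor, in 52. The peptide transporter Tap1 was higher in 19 and lower in 1, and B2m, the light chain of class I, was called in none (any size, 0 higher and 2 lower).

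Several described treatments gave no call. Cadmium Chloride at 8 uM, Paraquat Dichloride at 650 uM and 3-Methylcholanthrene at 23 uM gave no call at 1.5-fold (limma, 16, 7 and 20 members with an unadjusted p below 0.05). The constitutive medians were 0.10, 0.06 and 0.10. Of all genes, 1.39%, 0.127% and 0.809% lay wholly above the controls in these treatments, and 0.781%, 0.134% and 0.499% wholly below. The mTOR inhibitor rapamycin at 20 uM gave no call at 1.5-fold either (6 with an unadjusted p below 0.05), with 4 members lower at any size and a constitutive median of -0.04. The kinase inhibitor imatinib at 15 uM and the solvent N,N-Dimethylformamide at 65000 uM had constitutive medians of 0.06 and 0.02 and immunoproteasome means of 0.21 and 0.17, with no call (7 and 4 members with an unadjusted p below 0.05). With rapamycin, imatinib and N,N-Dimethylformamide, 1.91%, 1.48% and 0.999% of all genes lay wholly above the controls. Those wholly below were 1.95%, 0.647% and 0.654%. Few genes of any kind separated in the treatments of this paragraph, so the lack of calls is not particular to the members.

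Other genes of the pathway were taken from lists, and their counts stand beside 3.67% of all genes higher and 4.92% lower over the same treatments. The PA28 activator genes Psme1 and Psme2, which are interferon-induced caps of the 20S core, were lower in 18 and 34 treatments and higher in 0. With the other activators and inhibitors, 55 of 512 pairs (10.7%) were lower and 3 higher. The nuclear activator Psme4 was lower in 3 and the inhibitor Psmf1 higher in 3. Assembly chaperones were higher in 26 of 1024 pairs (2.54%, below the share of all genes) and lower in 2, led by Psmd9 (12 higher) and Psmd5 (7 higher, 1 lower), and Pomp, the core's maturation factor, was called in none (any size, 3 higher and 7 lower), nor was the chaperone Psmg1 (any size, 25 and 5). Proteasome-associated proteins were higher in 150 of 1152 pairs and lower in 9. Zfand2a, a zinc finger protein induced by arsenite and heat shock, gave 78 of these, and Uchl5, a deubiquitinase of the cap, gave 33. Rad23b, a shuttle for ubiquitinated proteins, gave none (any size, 6 higher and 2 lower). Of the p97 and ubiquitin genes, 20 of 768 pairs were higher (2.60%, below the share of all genes) and 9 lower, where Sqstm1, an autophagy receptor, was higher in 9 treatments Ufd1, a p97 cofactor, higher in 8 and Uba1, the ubiquitin-activating enzyme, lower in 8, and Faf2 was called in none (any size, 21 higher and 4 lower). Of the NRF1 axis, Nfe2l2, which encodes NRF2, was lower in 37 treatments and higher in 1, Ddi2, the protease that activates NRF1, was higher in 9 and lower in 5, and Nfe2l1 was lower in 2 and higher in 1. NRF2 target genes were higher in 184 of 1152 pairs and lower in 88, with the cystine transporter Slc7a11 higher in 52 and Gclc, of glutathione synthesis, lower in 48 and higher in 2. Tap1, Psme4, Psmf1 and Nfe2l1 were named after their values were seen.

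Exposure time was tested as a difference between changes. The change at 1 d differed from that at 0.67 d at the same bounds in 0 of 4224 pairs, against 0.025% of all genes (limma, and the ordinary linear model test also gave 0, while 103 pairs had an unadjusted p below 0.05). It differed in 3 pairs with the replicate block, 2 with the hybridization day block and 6 with all controls of the campaign. In controls, 1 d against 0.67 d with culture day as a block gave 0 members at 1.5-fold, against 0.668% of all genes (limma, with 18 members at an unadjusted p below 0.05 and again 0 by the ordinary test). With no bound on size 3 members were higher at 1 d, against 18.9% of all genes, and 7 were lower, against 16.7%. Psmb10 rose by 0.26 (SE 0.04, adjusted p = 2.92e-08) and Psmb9 by 0.15, while Psmc6 fell by 0.17 on the log2 scale (SE 0.02, adjusted p = 2.95e-08).

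The dose series asked whether the members follow dose at 1 d. No member had a slope over 3 doses of Allyl Alcohol, Busulfan, Carbon Tetrachloride, Clofibrate, Methapyrilene or Omeprazole at an adjusted p of 0.05, against 0.00117% of all genes over the 6 compounds (limma and the ordinary test, with an unadjusted p below 0.05 for 5 members with methapyrilene, 1 with clofibrate and 0 with the others). Members' slopes per dose step ran from -0.22 to 0.16. Psmb10 was already low at the lowest dose of methapyrilene, an antihistamine, with means of 8.68, 8.74 and 8.70 at 100, 300 and 500 uM against 9.63 in 3 controls. The single arrays were spread, 8.09, 8.90 and 9.05 at 100 uM, 8.24, 8.26 and 9.72 at 300 uM and 7.96, 8.49 and 9.64 at 500 uM, against 9.37, 9.71 and 9.83 in controls, so the groups overlapped at the upper doses as sets. Methapyrilene and control arrays of the same replicate number share a hybridization day, and against the control of the same number Psmb10 was lower on all 9 methapyrilene arrays, including the high ones of replicate 2 (9.72 and 9.64 against 9.83). With omeprazole, Psmb10 read 8.84, 9.02 and 9.10 at 365 uM, 8.68, 8.78 and 8.85 at 400 uM and 8.59, 8.93 and 8.99 at 435 uM, all below the controls. Psmd4 read 10.05, 10.12 and 10.16, then 9.99, 10.09 and 10.20, then 10.20, 10.27 and 10.41, against 9.38, 9.72 and 10.05 in controls.

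For 7 compounds the same dose was measured at 1 d in campaign 1 and again in campaign 4 or 5, with separate controls in each campaign. In campaign 5 all compounds share the same 3 controls, so their repeat values are not independent of each other. Psmb10 changed by -1.10 and -0.87 with omeprazole at 400 uM, by -1.50 and -0.90 with methapyrilene at 300 uM and by -0.53 and -0.48 with chlorpromazine at 43.9 uM. Psmd4 changed by 0.58 and 0.37 with omeprazole and by 0.42 and 0.30 with methapyrilene. These values kept their sign in the repeat. With clofibrate at 500 uM, Psmb10 changed by 0.09 and then by -0.45, and the sign turned. The constitutive median was 0.16 and 0.10 for omeprazole, 0.14 and 0.17 for methapyrilene, 0.08 and 0.15 for busulfan, 0.23 and 0.09 for carbon tetrachloride, 0.04 and 0.08 for allyl alcohol, -0.04 and -0.13 for clofibrate and 0.02 and -0.01 for chlorpromazine. Each value rests on 3 treated arrays, or 6 in the repeat of chlorpromazine, and was not tested.

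**Figure D5:**
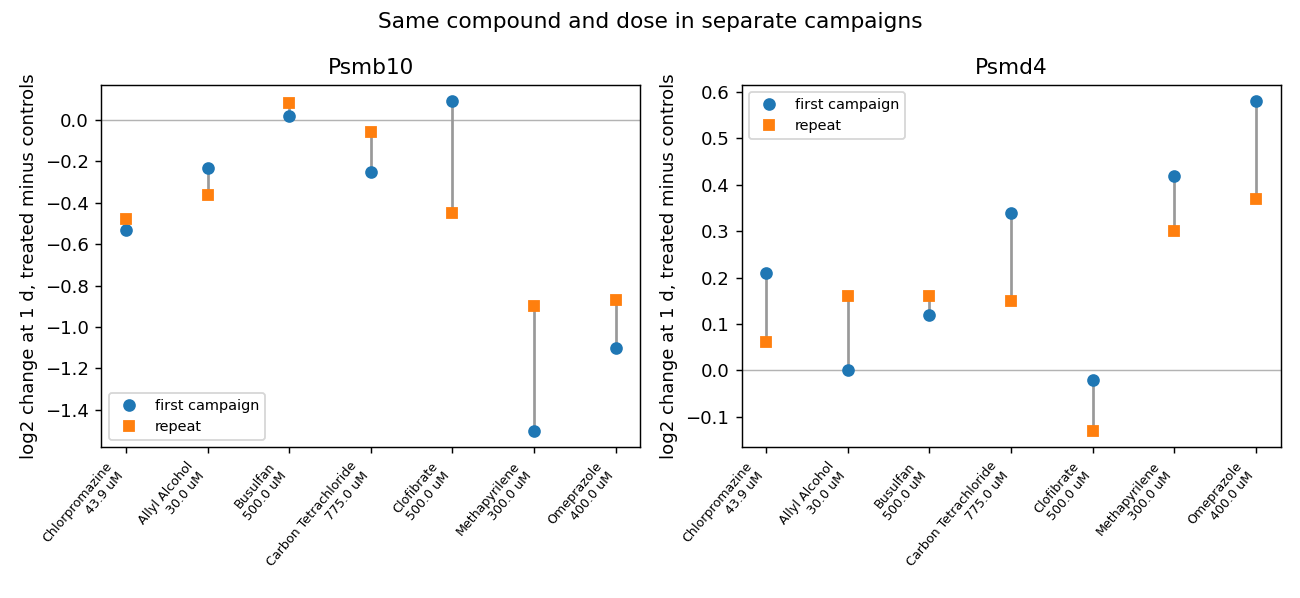
Log2 change at 1 d of Psmb10 (left) and Psmd4 (right) for 7 compounds at the same dose in the first campaign (circles) and in the repeat (squares), each against the controls naming it. In the repeat all compounds but chlorpromazine share the same controls. Omeprazole, methapyrilene and chlorpromazine lie below 0 in both for Psmb10, and clofibrate crosses 0.

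Doxorubicin, daunorubicin and idarubicin are anthracyclines, all given at 1.5 uM, and idarubicin lacks the methoxy group of daunorubicin, whereas doxorubicin has a hydroxyl that daunorubicin lacks. Treated minus the controls naming the compound was compared in 3 pairs with p adjusted over all genes and pairs. Idarubicin shares controls with doxorubicin and with daunorubicin. Psma3 read 8.23, 8.70 and 8.92 with idarubicin against 7.42, 7.85 and 8.02 in 18 controls, a change of 0.84 with no overlap. With idarubicin 2 members and 3.46% of all genes lay wholly above the controls. Psma3 read 7.79, 8.00 and 8.36 with doxorubicin, a change of 0.22, and 7.99, 8.04 and 8.49 with daunorubicin, a change of 0.33, and both overlapped with their controls. Psma3 was the 1 member called for doxorubicin against idarubicin, at -0.62 (95% interval -0.83 to -0.40, adjusted p = 1.84e-04), where 3.69% of all genes were called. Without replicate 3 or with the replicate block this pair gave no call, and without replicate 1 the 3 pairs gave 4 calls. For daunorubicin against idarubicin 0 members were called (7 with an unadjusted p below 0.05), where 4.61% of all genes were, with Psma3 at -0.51 (-0.71 to -0.31, adjusted p = 8.38e-04), under the bound on size. Psmd1 differed by 0.48 (0.27 to 0.68, adjusted p = 0.00190) in the same pair and by 0.41 (0.21 to 0.61, adjusted p = 0.00585) between doxorubicin and idarubicin. For daunorubicin against doxorubicin 0 members were called (1 with an unadjusted p below 0.05), where 0.0211% of all genes were, and members' differences ran from -0.16 to 0.23 with 95% intervals of up to 0.42 on either side.

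The genes whose levels ran most like the members were found over 268 condition means of campaign 1, which share arrays' processing, days and controls, and the correlations are a description. With the mean of the constitutive members they were Usp14, a deubiquitinase bound to the cap (Pearson r = 0.781), Cops5, the deneddylase of the related COP9 signalosome (0.768), Bag3, a co-chaperone (0.762), Fam32a (0.738), Ubfd1 (0.703) and Tbl3 (0.680). With the mean of the immunoproteasome genes they were Gbp2 (0.875), Psme2 (0.872), the interferon-induced Nmi (0.855) and Igtp (0.842), Psme1 (0.824) and Mov10 (0.810). The mean of one group and the mean of the other correlated at 0.017. Between constitutive members the median r was 0.592, from -0.287 to 0.886. Psmc4 ran most like the other constitutive members (0.928) and Psmd1 (0.273) and Psma3 (0.354) least. Psmb9 and Psmb10 correlated at 0.779 and Psmb8 and Psmb10 at 0.395.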

How the data were processed

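Expression was measured on 939 arrays of primary rat hepatocytes. The authors deposited log2 values for 31099 probe sets, and the submitters' processing notes name RMA without a version, while the study's methods name its frozen form for the whole collection. These log2 values were used as deposited. Probe sets with 1 gene symbol in the platform annotation (20832, of which 20764 were updated through the RefSeq table of GRCr8) were kept, those with several (436) or none (9831) were left out, and the probe set of highest mean stood for each of 14218 genes. Arrays have no read depth, and their number limits the precision.

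For each treatment limma 3.58.1 in R 4.3.3 was fitted with treatment and exposure time to its treated arrays and the controls naming it, and Benjamini-Hochberg adjustment ran over all genes. A call needed an adjusted p of 0.01 and 1.5-fold; the second rule had no bound on size. Dose slopes scored doses -1, 0 and 1 and were called at an adjusted p of 0.05. For time in culture, the 104 controls of campaigns 1 to 3 were fitted with their 51 culture days as a block. Anthracyclines were compared pairwise as differences between their changes from control. The fits were tested on simulated data.

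All members may be named. Members shown array by array were those called in most treatments of each subunit group and the catalytic ones; treatments described were the 8 with most members higher, the 8 with most lower, the 4 at each end of the immunoproteasome mean and 10 named ones. Of other lists, the 2 genes called in most treatments and those called in none were to be named. The members, lists and named treatments were chosen with earlier results of these data known. Further members were named where they carried a call. Alternatives were other bounds, the ordinary linear model test that stands for the methods' t-test, all controls, single times, other scalings, the median of probe sets, a filter on low genes, blocks for hybridization day, extraction day and replicate number, and leaving out each replicate; leaving out 2 arrays was chosen after seeing the data.

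Whether replicate numbers pair arrays was checked on residuals. In campaign 5, 53 of 54 same-number pairs of treated and control arrays correlated above 0.1 (mean 0.557, against -0.275 between numbers), and all but 2 arrays share a hybridization day with the others of their number per the labels, so numbers pair arrays in the dose series; the block changed no slope call. In campaigns 1 to 3, 599 of 1003 did (mean 0.195, against -0.053 between numbers), and in 45 of 128 treatments all pairs did. The main fits there do not use the numbers. With the replicate block 162 of the 168 member calls were made again.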

Additional observations from a re-analysis of the deposited data

Results flagged for a closer look

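Of 37 groups of 4 to 10 arrays examined for named members, 4 held an array set apart from the rest by Dixon's criterion, which chance meets in about 1 in 20 groups. Psma3 read 7.61 on the 1 d replicate 2 control of valeric acid, against 7.94 to 8.01 on the others. It read 7.42 on the 1 d replicate 3 control of dexamethasone, against 7.80 to 7.94. With doxofylline it read 6.79 on the 0.67 d replicate 3 array, against 5.65 to 5.98 on the other treated arrays. Psmd1 read 9.25 on the 0.67 d replicate 3 control of sparteine, against 9.65 to 9.77. Psma3 also differed between doxorubicin and idarubicin by -0.62 on the log2 scale (limma, adjusted p = 1.84e-04), a tested difference between compounds.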

How the results depend on the processing

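None of the 168 called pairs turned sign under any alternative. With a 2-fold bound 54 of them were still called, with 0 pairs higher and 54 lower, of which 0 and 6 were constitutive and 48 lower immunoproteasome, and 0 anthracycline calls. With no bound there were 456 pairs higher and 327 lower (constitutive 449 and 174), 5 treatments with at least 17 members higher and 2 with as many lower, 10 members changed with time in culture and 5 anthracycline calls. After the array median was subtracted there were 113 pairs higher, 112 of them constitutive, 12 constitutive pairs lower and 2 treatments with at least 17 members higher. At 0.67 d alone 27 pairs were higher, all 27 constitutive. Exposure time gave 6 calls with all controls, 2 with the hybridization day block and 3 with the replicate block, and the anthracyclines gave 2 with the extraction day block. The replicate block gave 45 pairs higher and 124 lower and 0 anthracycline calls. Leaving out 1 replicate gave 37 to 53 pairs higher, 110 to 131 lower, 35 to 53 constitutive higher, 16 to 19 constitutive lower, 93 to 112 immunoproteasome lower, 0 to 1 dose slopes and 0 to 4 anthracycline calls. Without replicate 1, and with the hybridization day block, 127 of 128 treatments could be fitted. The cause of these shifts was not tested. Values near the array median are bounded by signal over background, and no culture is labelled for the treated arrays.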
